A study of Mus musculus with 17 samples.

Results

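Smooth muscle contractile genes were followed while mouse embryonic fibroblasts (MEF) were reprogrammed to induced pluripotent stem cells (iPSC). The set holds 10 of the 38734 genes measured, chosen by symbol: the actins Acta2, Actg2 and Actc1, the actin-binding proteins Tagln, Cnn1, Tpm2 and Smtn, the myosin chains Myl9 and Myh11, and the intermediate filament gene Des. All 10 were found, and all 10 had a mean of at least 1 FPKM (fragments scaled to transcript length and to the mapped fragments of the library) over the 17 libraries, as did 14240 genes in all. The KI cells carried the alleles ColA1_miR203, Rosa26rtTA and OSKM, the KO cells lacked miR-203 and carried OSKM, and the WT cells had miR-203 unaltered and carried OSKM. OSKM is a transgenic cassette for Oct4, Sox2, Klf4 and cMyc, and per the labels doxycycline at 1 ug/ml switched it on in all 3 genotypes and also switched on miR-203 in KI. Libraries were made from MEF and at days 0, 4, 6 and 7 in each genotype, and from iPSC in KO and WT only. The labels give the same doxycycline treatment for every library, MEF and day 0 included, and do not say whether a genotype stands for several embryos. Each genotype has 1 library at a stage, so its values carry no error of their own.

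Smooth muscle cells contract when phosphorylated myosin light chain lets myosin pull on smooth muscle actin filaments, with tropomyosin, calponin and transgelin bound along the filaments. Fibroblasts grown on stiff plastic switch on many of the same genes and become myofibroblasts, a state promoted by TGF-beta and by tension. Serum response factor (SRF) with the cofactors MRTF-A and MRTF-B (genes Mkl1 and Mkl2) or myocardin binds the CArG box in the control regions of many of these genes. Reprogramming replaces such a mesenchymal programme with an epithelial and then a pluripotent one.

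Sequences are shown for the microRNA that was altered and for the proximal promoters in which CArG boxes were sought. Mature miR-203-3p lies at chr12:112130927-112130948 on the plus strand (GRCm38.p6, RefSeq), with its seed, bases 2 to 8, in capitals.
miR-203-3p: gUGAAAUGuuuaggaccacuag
The match to that seed, CATTTCA, was sought in the 3′ untranslated regions, taking the longest one annotated for a gene. It was found in 0 of 10 members and in 3381 of 21027 genes (16.1%). RefSeq promoter windows, 250 bases before to 50 after the start, were given for 7 of the 10 members, the others being Actg2, Tagln and Myh11. The CArG box was searched on both strands by its usual consensus, and a CArG-like box was allowed 1 G or C in its A/T core. A CArG box was in 2 of 7 member windows and in 535 of 32851 windows in all (1.63%). A box of either kind was in 3 of 7 and in 3280 windows (9.98%). These are Acta2 (chr19:34255324-34255623, minus strand), Myl9 (chr2:156775214-156775513, plus strand) and Actc1 (chr2:114052826-114053125, minus strand), printed 5′ to 3′ with the boxes in capitals. Cnn1 (chr9:22099003-22099302, plus strand) stands beside them as the member with the largest fall at day 4, and has no box in this window.
Acta2 promoter: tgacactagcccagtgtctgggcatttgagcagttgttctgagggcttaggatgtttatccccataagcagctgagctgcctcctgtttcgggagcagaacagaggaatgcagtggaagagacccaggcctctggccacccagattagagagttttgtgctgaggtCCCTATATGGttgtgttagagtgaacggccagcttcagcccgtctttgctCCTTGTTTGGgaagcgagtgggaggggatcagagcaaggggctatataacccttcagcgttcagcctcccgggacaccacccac
Myl9 promoter: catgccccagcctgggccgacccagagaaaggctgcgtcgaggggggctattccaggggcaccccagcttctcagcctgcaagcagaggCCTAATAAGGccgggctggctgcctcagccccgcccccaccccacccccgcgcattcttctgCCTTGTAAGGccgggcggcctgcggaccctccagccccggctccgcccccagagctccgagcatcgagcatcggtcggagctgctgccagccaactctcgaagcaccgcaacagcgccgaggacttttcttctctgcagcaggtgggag
Actc1 promoter: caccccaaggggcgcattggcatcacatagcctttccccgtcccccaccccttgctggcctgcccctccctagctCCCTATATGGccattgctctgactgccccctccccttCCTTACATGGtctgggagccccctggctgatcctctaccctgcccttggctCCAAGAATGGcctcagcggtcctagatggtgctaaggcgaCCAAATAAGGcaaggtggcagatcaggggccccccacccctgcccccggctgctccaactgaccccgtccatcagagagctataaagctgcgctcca
Cnn1 promoter: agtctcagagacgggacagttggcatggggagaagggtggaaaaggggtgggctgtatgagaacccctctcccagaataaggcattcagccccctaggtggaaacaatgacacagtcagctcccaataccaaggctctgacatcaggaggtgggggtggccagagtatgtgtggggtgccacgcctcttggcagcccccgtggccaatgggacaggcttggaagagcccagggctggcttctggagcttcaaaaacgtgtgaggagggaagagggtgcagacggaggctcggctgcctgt
In Acta2 the CArG-like boxes CCCTATATGG and CCTTGTTTGG began 84 and 34 bases before the start. In Myl9 the CArG box CCTAATAAGG began 161 bases and the CArG-like box CCTTGTAAGG 99 bases before it. In Actc1 the CArG box CCAAATAAGG began 47 bases before the start and 3 CArG-like boxes lay further out. A match is a description of these letters and not a measured binding site.

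Some libraries went against their labels or stood apart. Pou5f1 (Oct4), a factor of the cassette, was at 0.851, 0.491 and 0.675 FPKM in KI at days 4, 6 and 7, against 255, 852 and 954 in KO and 266, 37.4 and 85.3 in WT. RNA of the transgene and of the endogenous gene is counted together, and the KI values lay within the range of the early libraries. Mir203 was at 7903, 5863 and 5470 FPKM in KI at these days and was listed at 0 in every KO and WT library, which in polyadenylated RNA does not measure the mature microRNA. The WT libraries of day 4 (48.0 FPKM) and MEF (46.9) held Xist, the RNA of the inactive X chromosome, which was at most 3.23 elsewhere. Ddx3y, on the Y chromosome, was low in 3 WT libraries, those of iPSC (1.51), day 4 (2.74) and MEF (0.0179), and at 14.5 to 20.0 in the other 14. Counts of members and of the main lists that rest on these 3 WT libraries are also given with them left out.

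The contractile genes were among the abundant RNAs of the fibroblasts. In the 6 libraries of MEF and day 0 their FPKM summed to between 5271 in KI MEF and 6816 in WT day 0, which was 0.902% to 1.14% of all FPKM. At days 4, 6 and 7 the sum was 509, 1586 and 1168 in KI, 418, 362 and 257 in KO, and 486, 407 and 297 in WT. In iPSC it was 39.6 in KO and 57.4 in WT. Every sum at day 4 or later was therefore below every early sum, and at days 4, 6 and 7 the KI sums were the highest of the 3 genotypes.

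**Figure D1:**
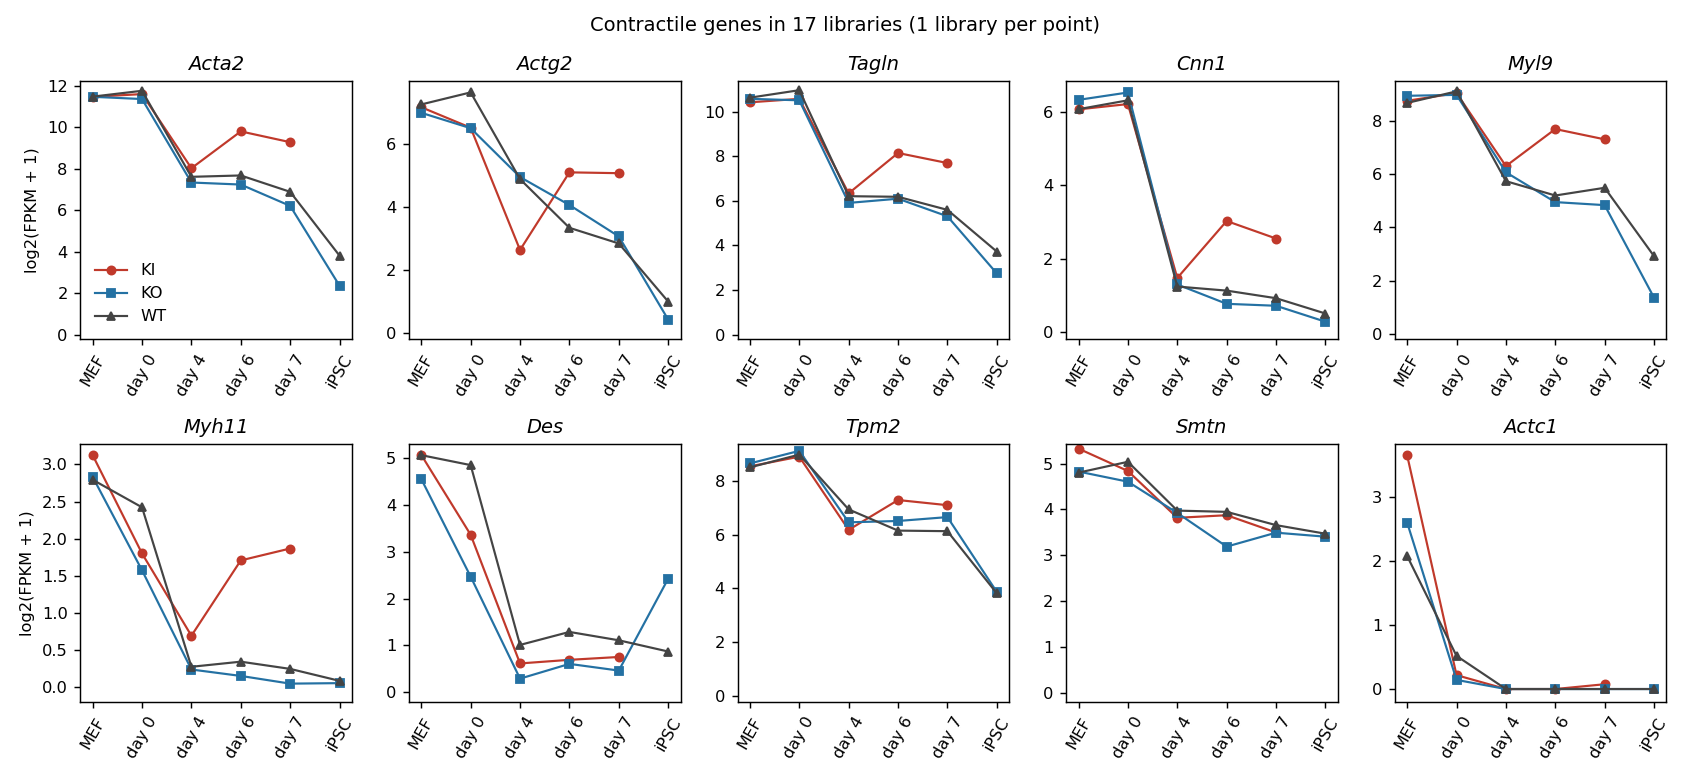
Each panel plots log2(FPKM + 1) of 1 contractile gene against the 6 stages, 1 library per point, for KI, KO and WT. All 10 genes were lower in every day 4 library than in every day 0 library, though Actc1 was already near 0 at day 0. For 7 genes both KI libraries of days 6 and 7 stood above those of KO and WT.

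Acta2 (ENSMUSG00000035783, GRCm38 chr19:34241090-34255590), the smooth muscle actin and usual mark of myofibroblasts, had the highest FPKM of the set in the early libraries. In KI it was at 2809.7 FPKM in MEF, 3079 at day 0, 259 at day 4, 887 at day 6 and 619 at day 7. In KO it was at 2813, 2610.3, 160.4, 149.8 and 73.0 FPKM at these stages and at 4.17 in iPSC. In WT it was at 2829, 3438, 194, 203.2 and 117 FPKM and at 13.1 in iPSC. The genotypes lay close together in MEF and parted at days 6 and 7, where KI was 4.36 and 5.27 times WT and 5.92 and 8.47 times KO.

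Actg2 (ENSMUSG00000059430, chr6:83512905-83536265), the actin of visceral smooth muscle, followed another course in KI. Its FPKM in KI was 141 in MEF, 89.7 at day 0, 5.17 at day 4, 33.0 at day 6 and 32.4 at day 7. The KO values were 125, 88.7, 29.7, 15.6 and 7.32, and 0.339 in iPSC. The WT values were 150.3, 196, 28.3, 9.05 and 6.13, and 0.988 in iPSC. KI was thus the lowest genotype at day 4, at 0.174 times KO and 0.183 times WT, and the highest at days 6 and 7.

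Actc1 (ENSMUSG00000068614, chr2:114047282-114053548), the cardiac actin, was low throughout. It was at 11.6 FPKM in KI, 5.08 in KO and 3.23 in WT MEF, and at 0.162 in KI, 0.104 in KO and 0.432 in WT at day 0. From day 4 it was listed at 0 in all libraries but KI day 7, at 0.0535. Actc1 passed the low-value filter through the MEF libraries alone. The actin genes encode proteins near-identical to one another and to those of Actb and Actg1. How far the authors' alignment shared reads among these genes is not known. The same is not known for Tpm2 with Tpm1 and for Myl9 with Myl12a and Myl12b.

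Tagln (ENSMUSG00000032085, chr9:45929619-45936058), which encodes transgelin (SM22), an actin-bundling protein, was the second most abundant member early. Its FPKM in KI was 1362 in MEF, 1518 at day 0, 79.6 at day 4, 281 at day 6 and 206 at day 7. KO libraries held 1518, 1450.4, 58.9, 67.3 and 38.5, and 5.71 in iPSC. WT libraries held 1574, 1986, 72.8, 71.4 and 47.3, and 12.2 in iPSC. KI was the lowest genotype in MEF and the highest from day 4.

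Cnn1 (ENSMUSG00000001349, chr9:22099216-22109630), calponin, which restrains actin-activated myosin, was the member with the largest log2 fall at day 4. Its FPKM in KI was 66.3 in MEF, 73.4 at day 0, 1.77 at day 4, 7.14 at day 6 and 4.84 at day 7. For KO the values were 79.6, 91.7, 1.45, 0.698 and 0.637, and 0.210 in iPSC. For WT they were 66.6, 78.9, 1.35, 1.18 and 0.888, and 0.413 in iPSC. The day 4 libraries held 1.69% to 2.53% of the early mean of their genotype, and at day 6 KI held 10.2% against 0.815% in KO and 1.62% in WT.

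Tpm2 (ENSMUSG00000028464, chr4:43514711-43523765), beta-tropomyosin, lies along the actin filament. Its FPKM in KI was 368 in MEF, 472 at day 0, 71.1 at day 4, 154 at day 6 and 135 at day 7. KO stood at 397, 548, 86.5, 89.6 and 99.1, and 13.7 in iPSC. WT stood at 358, 498, 121, 69.8 and 68.7, and 13.1 in iPSC. KI was again lowest at day 4 and highest at days 6 and 7, by factors of 2.21 and 1.96 over WT and 1.72 and 1.36 over KO.

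Smtn (ENSMUSG00000020439, chr11:3517523-3540612), smoothelin, which binds actin stress fibres, had the smallest fall at day 4 among the members called. It was at 39.1, 27.6, 13.1, 13.6 and 10.3 FPKM in KI at the 5 stages. In KO it was at 27.4, 23.3, 14.2, 8.11 and 10.2 FPKM, and in WT at 26.9, 31.9, 14.7, 14.4 and 11.6. In iPSC it was at 9.59 in KO and 10.1 in WT, close to the day 7 values, and KI had no lead at days 6 and 7.

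Myl9 (ENSMUSG00000067818, chr2:156775420-156781658) encodes the regulatory light chain whose phosphorylation starts smooth muscle contraction. Its FPKM in KI was 433 in MEF, 529 at day 0, 78.2 at day 4, 207 at day 6 and 158 at day 7. The KO libraries had 494, 506, 66.4, 30.0 and 27.6, and 1.56 in iPSC. The WT libraries had 409.8, 555, 52.4, 35.8 and 44.0, and 6.57 in iPSC. At day 6 KI held 43.0% of its early mean, against 6.00% in KO and 7.42% in WT.

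Myh11 (ENSMUSG00000018830, chr16:14194535-14291372), the smooth muscle myosin heavy chain and the member most restricted to mature smooth muscle, was low in all libraries. It was at 7.73, 2.48, 0.614, 2.26 and 2.65 FPKM in KI at the 5 stages. KO was at 6.13, 1.98, 0.177, 0.109 and 0.0318, and in WT at 5.94, 4.36, 0.208, 0.267 and 0.184. In iPSC it was at 0.0366 in KO and 0.0590 in WT. KI at days 6 and 7 overlapped the early libraries, at 44.3% and 51.9% of its early mean, which made Myh11 the member for which the later and the early libraries were not separate.

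Des (ENSMUSG00000026208, chr1:75360329-75368579), desmin, the intermediate filament protein of muscle, stayed under 1 FPKM in KI from day 4. It was at 32.3, 9.25, 0.534, 0.618 and 0.687 FPKM in KI at the 5 stages. KO was at 22.3, 4.52, 0.226, 0.524 and 0.381, and in WT at 32.2, 27.7, 1.02, 1.44 and 1.16. In iPSC it was at 4.36 in KO and 0.829 in WT. WT was the highest genotype from day 0 to day 7, and KO iPSC stood above every library of days 4 to 7.

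Between MEF and day 0, with the 3 genotypes as the samples of a stage, 0 of the 9 members other than Actc1 were called by limma, where 0.0211% of all genes were called lower, and 0 were without the 3 WT libraries that stood apart. Actc1 had passed the filter through its MEF values, so its difference from MEF is given by the FPKM above and not by a test. On the scale of log2(FPKM + 1), 2 of the 9 had an unadjusted p under 0.05: Des differed by -1.33 ± 0.50 and Myh11 by -0.99 ± 0.38 (SE, 3 libraries per stage). So did 688 of 14240 genes in all. Skeletal and cardiac muscle markers had a summed FPKM over 26 genes of 7.79 to 21.2 at day 0 and 37.4 to 44.2 in MEF. In MEF the myogenic factor Myod1 was at 0.466 in KI, 0.283 in KO and 0.393 in WT, and Myog was at 1.40 in KI, 0.582 in KO and 0.252 in WT. At day 0 both were at 0.0812 FPKM or less. Their part in the Actc1 and Des values was not tested.

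Between day 0 and day 4, 9 of 10 members fell and none rose. Of all genes 10.0% were called lower. Cnn1 fell by 5.03 ± 0.45 (log2 scale, SE, 3 libraries per stage, adjusted p = 3.5e-05), Tagln by 4.53 ± 0.50 (adjusted p = 0.00013) and Acta2 by 3.91 ± 0.56 (adjusted p = 0.00067). Myl9 fell by 3.01 ± 0.58, Des by 2.91 ± 0.50, Actg2 by 2.72 ± 0.74 and Tpm2 by 2.46 ± 0.29. The smallest falls were those of Myh11, 1.53 ± 0.38, and Smtn, 0.92 ± 0.18 (adjusted p = 0.0043). Actc1, already near 0 at day 0, differed by -0.29 ± 0.32 and did not pass. The median difference was -2.82 over the members and 0.01 over all genes. All 10 members were lower in each day 4 library than in each day 0 library, as were 18.2% of all genes, and also without the 3 WT libraries. Actc1 is among the 10, but at 0.104 to 0.432 FPKM at day 0 and 0 at day 4 it adds no support. In bulk RNA, fewer cells of a type and less RNA per cell cannot be told apart. Leaving out the 3 WT libraries that stood apart, 7 members were called, where 1016 of 14112 genes were called lower. Leaving out all WT libraries, 4 members were called, with a median of -2.70, where 402 of 14102 genes were called lower. Quantile normalization, which called 1246 genes higher and 1777 lower where the unscaled values gave 1756 and 1426, called the same number of members, 9.

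**Figure D2:**
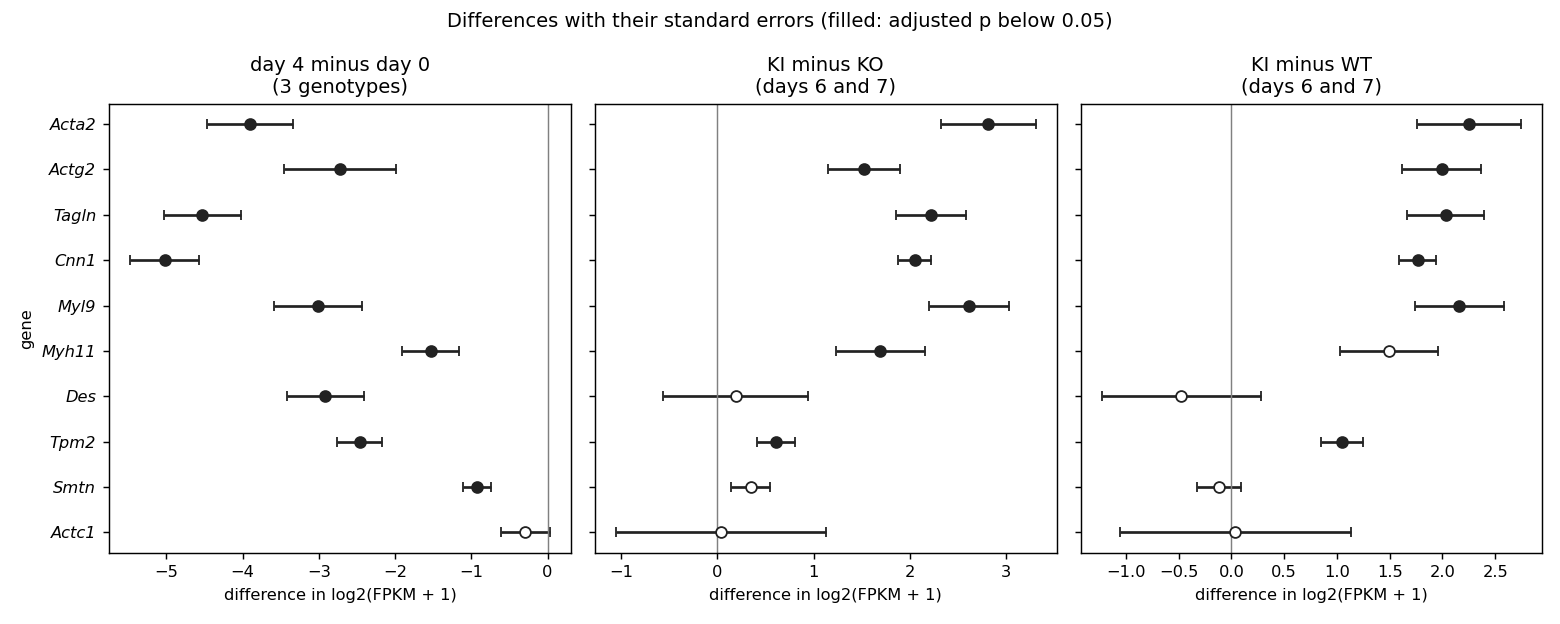
Differences in log2(FPKM + 1), with standard errors, for the 10 contractile genes: day 4 minus day 0 over 3 genotypes, and KI minus KO and KI minus WT over days 6 and 7. Filled points have an adjusted p below 0.05: 9 genes at day 4, 7 genes for KI minus KO and 6 genes for KI minus WT.

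Over the 3 genotypes together the set then stayed low. Day 6 and day 7 each called 0 of 10 members against day 4, where 0 members were at an unadjusted p under 0.05 and limma called 0.0140% and 0.0211% of all genes in either direction. Both counts were 0 without the 3 WT libraries too. At day 7 the 9 members other than Actc1 were all below MEF, led by Cnn1 (-4.77 ± 0.45), Tagln (-4.34 ± 0.50), Des (-4.11 ± 0.50) and Acta2 (-4.00 ± 0.56, SE, 3 libraries per stage), where 10.6% of all genes were called lower. The median was -3.47 over these 9, and 8 of them were called without the 3 WT libraries that stood apart. Of all 10, Actc1 included, 6 were called without any WT library. Over all genes 988 of 14112 were called lower without the 3 WT libraries and 387 of 14102 without any. Each library of days 4, 6 and 7 lay below each early library for 9 of 10 members, all but Myh11. That held for 7.99% of all genes, and the member count was 9 without the 3 WT libraries. Actc1 is among these members, but it passed the filter through its MEF values, which are early libraries, so it adds no support here.

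The genotypes were also described by the share of their early level, the mean of MEF and day 0, that they held. The median over the 10 members was 7.16% at day 4, 29.3% at day 6 and 24.5% at day 7 in KI. In KO it was 5.15%, 5.03% and 2.76%, and in WT 5.14%, 5.20% and 3.66%. In KI the members that stood highest at day 6 were Myh11, Myl9 (43.0%), Smtn (40.9%), Tpm2 (36.8%), Acta2 (30.1%) and Actg2 (28.6%), but Smtn had not moved from its 39.2% of day 4. KI was the highest genotype for 4 members in MEF, 0 at day 0, 5 at day 4, 7 at day 6 and 8 at day 7. It was at least 2 times both others for 6 members at day 6 and for 6 at day 7. The count of 8 includes Actc1, at 0.0535 FPKM in KI against 0 in KO and WT. The shares of all genes for these counts were not worked out, so the counts are descriptions only.

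**Figure D3:**
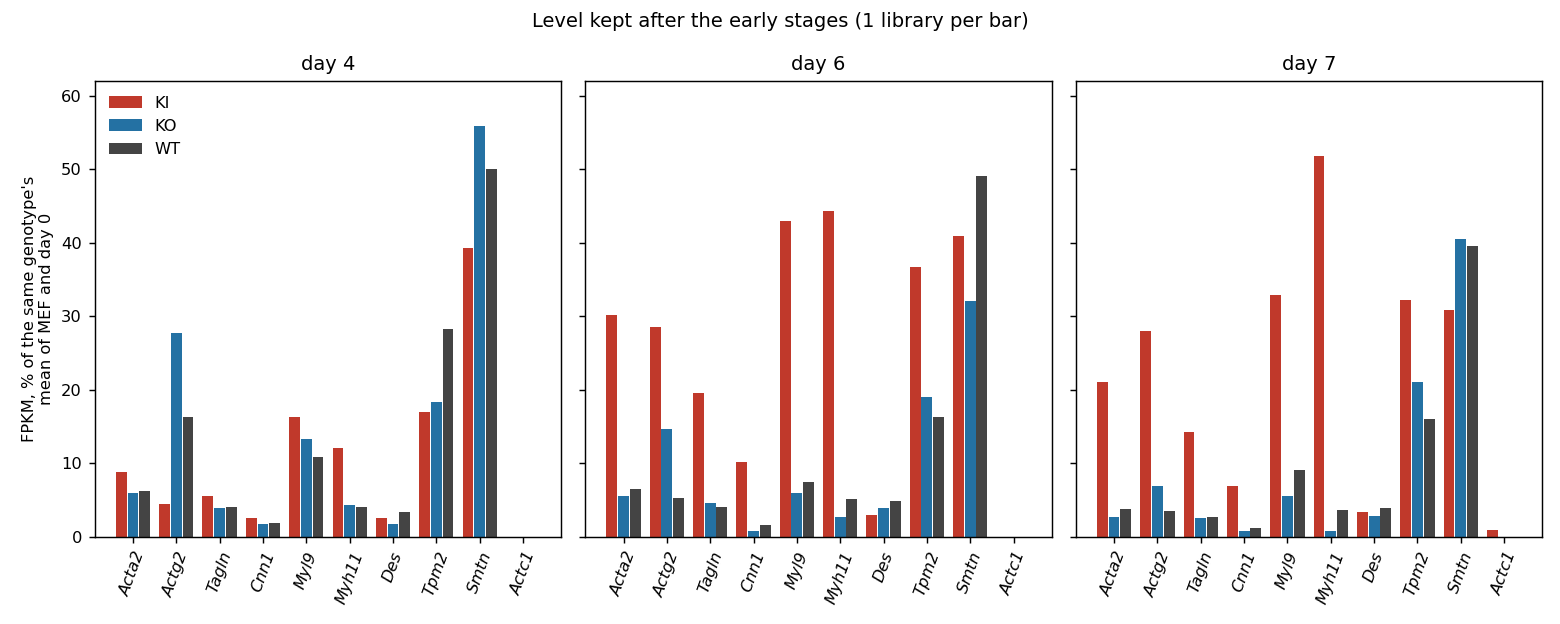
Bars give the FPKM of each contractile gene at days 4, 6 and 7 as a percentage of the mean of MEF and day 0 in the same genotype, 1 library per bar. At day 6 KI holds 30.1% of Acta2 against 5.52% in KO and 6.48% in WT, while Des and Smtn show no KI lead.

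The genotypes were compared at days 6 and 7, which stood as 2 samples of 1 period. The spread was pooled over all periods, so it also holds MEF against day 0 and KO against WT iPSC. It is not a spread between cultures. Against WT 6 members were higher in KI and none lower, where 1.63% of all genes were called higher. Cnn1 was higher by 1.77 ± 0.17 (log2 scale, SE, 2 libraries each, adjusted p = 0.0012 by limma), Acta2 by 2.25 ± 0.49 (adjusted p = 0.027), Myl9 by 2.16 ± 0.42, Tagln by 2.03 ± 0.37, Actg2 by 1.99 ± 0.38 and Tpm2 by 1.05 ± 0.20. Myh11 differed by 1.49 ± 0.46 (adjusted p = 0.078 by limma) without passing. Des (-0.47 ± 0.76), Smtn (-0.12 ± 0.21) and Actc1 (0.04 ± 1.09) did not pass either. The median was 1.63 over the members and -0.14 over all genes, and 1.97 over the members after quantile normalization, which moved the median of all genes to 0.01. That scaling called 451 genes higher and 567 lower in place of 232 and 1173, and 7 members. With the day 6 or the day 7 libraries left out, which leaves 1 library per genotype in the period, the medians over the members were 1.63 and 1.56. Without the MEF libraries 3 members were called, where 144 of 14299 genes were called higher. Without the day 0 libraries 3 were called, where 141 of 14285 genes were called higher.

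Against KO 7 members were higher in KI and none lower, where 13.3% of all genes were called higher. Acta2 was higher by 2.81 ± 0.49 (log2 scale, SE, 2 libraries each, adjusted p = 0.0013 by limma), Myl9 by 2.61 ± 0.42, Tagln by 2.22 ± 0.37, Cnn1 by 2.05 ± 0.17, Myh11 by 1.69 ± 0.46, Actg2 by 1.52 ± 0.38 and Tpm2 by 0.61 ± 0.20. Both KI libraries stood above all KO and WT libraries of days 6 and 7 for 7 members, as for 9.61% of all genes, and above both WT libraries for 7, as for 15.8%. The median was 1.61 over the members and -0.35 over all genes. Quantile normalization moved the median of all genes to 0.04 and the calls over all genes to 4122 higher and 3737 lower from 1898 and 6092, with 8 members called. Without the day 6 or the day 7 libraries each genotype has 1 library in this period, so no count is given. KI minus WT and KI minus KO share the KI libraries. Between KO and WT 0 of 10 members were called, with 0 at an unadjusted p under 0.05, where limma called 48.1% of all genes in either direction.

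Whether these differences were larger than those in MEF and day 0 was not tested. The test of the difference in step, given below, compares them with those at day 4. In MEF and day 0 together 0 of 10 members were called by limma between KI and WT, where 0.351% of all genes were called in either direction, and 0 were at an unadjusted p under 0.05. Leaving out the 3 WT libraries gave 0 calls as well. Averaged over 5 stages 0 members were called by limma between KI and WT, where 0.397% of all genes were called in either direction. At an unadjusted p under 0.05 were 2 of 10 members and 1240 of 13837 genes. The step from day 4 to days 6 and 7 was tested within each genotype, with the single day 4 library assumed to vary like the others. In KI 0 members were called by limma, where 0.0351% of all genes were called higher. At an unadjusted p under 0.05 were 6 of 10 members and 1088 of 14240 genes. Cnn1 differed by 1.32 ± 0.21 (adjusted p = 0.052 by limma), Actg2 by 2.45 ± 0.46 (adjusted p = 0.11) and Acta2 by 1.51 ± 0.60 (adjusted p = 0.59). In KO 0 members were called by limma, where 14.3% of all genes were called in either direction, and 1, Myl9, was called lower without the 3 WT libraries. The unadjusted p was under 0.05 for 4 of 10 members and for 4333 of 14240 genes, shares that are not far apart. In WT 2 of 10 members were called lower, a share near the 21.4% of all genes. Actg2 fell by 1.79 ± 0.46 (adjusted p = 0.019 by limma) and Tpm2 by 0.80 ± 0.24 (adjusted p = 0.037). The comparison in WT rests on the WT day 4 library that stood apart. By a test of the difference in this step, 2 members stepped up more in KI than in KO, Actg2 and Cnn1, where 0.435% of all genes did, and 3 more in KI than in WT, with Tpm2 added, where 8.84% did. Without the 3 WT libraries the count against KO was 3, with Myl9 added. Each of these rests on 1 day 4 library per genotype, whose own spread is not known, and for Actg2 on a KI value of 5.17 FPKM at day 4 against 29.7 in KO and 28.3 in WT. Against KI MEF and day 0, 8 members were lower in KI at days 6 and 7, where 32.9% of all genes were called lower. Cnn1 differed by -3.36 ± 0.17 and Tagln by -2.57 ± 0.37 on the log2 scale, while Myh11 differed by -0.68 ± 0.46 (adjusted p = 0.27 by limma).

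The summed level of the set was lowest in iPSC. The 9 members other than Actc1 were all below MEF, with and without the 3 WT libraries, where 21.4% of all genes were called lower. Acta2 fell by 7.99 ± 0.64 (log2 scale, SE, 2 iPSC and 3 MEF libraries, adjusted p = 3.9e-06), and the differences were -7.02 ± 0.57 for Tagln, -6.37 ± 0.84 for Actg2 and -6.32 ± 0.66 for Myl9, with a median of -5.53 over these 9 and 0.12 over all genes. Against day 7 5 members fell, where 24.1% of all genes were called lower: Acta2 (-3.99 ± 0.64), Myl9 (-3.40 ± 0.66), Actg2 (-2.90 ± 0.84), Tpm2 (-2.71 ± 0.34) and Tagln (-2.68 ± 0.57). Without the 3 WT libraries 4 fell and 1, Des, rose. In the full set Des differed by 0.85 ± 0.57 (adjusted p = 0.24 by limma), with its 2 iPSC libraries far apart. KI has no iPSC library, so these contrasts set KO and WT iPSC against all 3 genotypes with genotype as a term.

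The wider programme moved with the members at day 4. Of 28 other smooth muscle and SRF-regulated cytoskeletal genes that passed the filter (30 listed) 19 fell and 1 rose between day 0 and day 4, with a median of -1.73, where 10.0% of all genes were called lower and 12.3% higher. Lmod1, leiomodin, which nucleates actin filaments in smooth muscle, was at 1.66, 1.29 and 1.36 FPKM in KI, KO and WT at day 4, against 22.3, 22.4 and 23.5 at day 0 (-3.29 ± 0.29). The focal adhesion genes Fhl2 (-3.17 ± 0.37), Vcl (-2.68 ± 0.21) and Itga5 (-2.46 ± 0.15), the fibronectin receptor chain, fell too, as did Nexn (-2.67 ± 0.28). Aoc3 was the 1 that rose (2.22 ± 0.55). Of 16 listed non-muscle and striated paralogues 14 passed the filter, and the striated actin Acta1 was not among them. Of these 14, 11 fell and 1, Myl12b, rose (1.05 ± 0.26). Among those that fell were the neural and muscle progenitor filament gene Nes (-2.27 ± 0.61), Cnn2 (-2.10 ± 0.22), Myh9 (-1.83 ± 0.20), Actg1 (-1.79 ± 0.26), Myl12a (-1.71 ± 0.18) and Tpm4 (-1.70 ± 0.18), with a median of -1.50. The cytoplasmic actin Actb was at 618, 949.6 and 1515 FPKM in KI, KO and WT at day 4, against 2871, 2706 and 2989 at day 0.

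Among the regulators 12 of 24 fell at day 4 and 1 rose, with a median of -0.52. Srf was at 8.08, 8.24 and 9.84 FPKM in KI, KO and WT at day 4, against 24.8, 24.0 and 28.9 at day 0 (-1.47 ± 0.18). The inhibitory Smad7, itself a TGF-beta target, fell by 2.58 ± 0.27, Klf5 by 1.89 ± 0.47, Rock2, a kinase that maintains stress fibres, by 1.52 ± 0.18, and Tead1 by 1.41 ± 0.16. Klf4, which in smooth muscle cells represses contractile genes, rose by 1.55 ± 0.47, but it is a factor of the cassette. Myocd stayed at 1.47 FPKM or less in all libraries. Of 21 TGF-beta ligands, receptors and fibrotic targets 11 fell and 5 rose, with Ctgf (-5.07 ± 0.38) and Inhba (-3.50 ± 0.33) down and Tgfbi (3.02 ± 0.45), Tgfbr3 (2.60 ± 0.47) and Tgfbr2 (2.15 ± 0.47) up. Without the 3 WT libraries that stood apart, 18 of the 28 other smooth muscle genes fell and 1 rose, 10 of the 14 paralogues fell and 0 rose by limma, 8 of the 24 regulators fell and 1 rose, and 5 of the 21 TGF-beta genes fell and 3 rose.

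**Figure D4:**
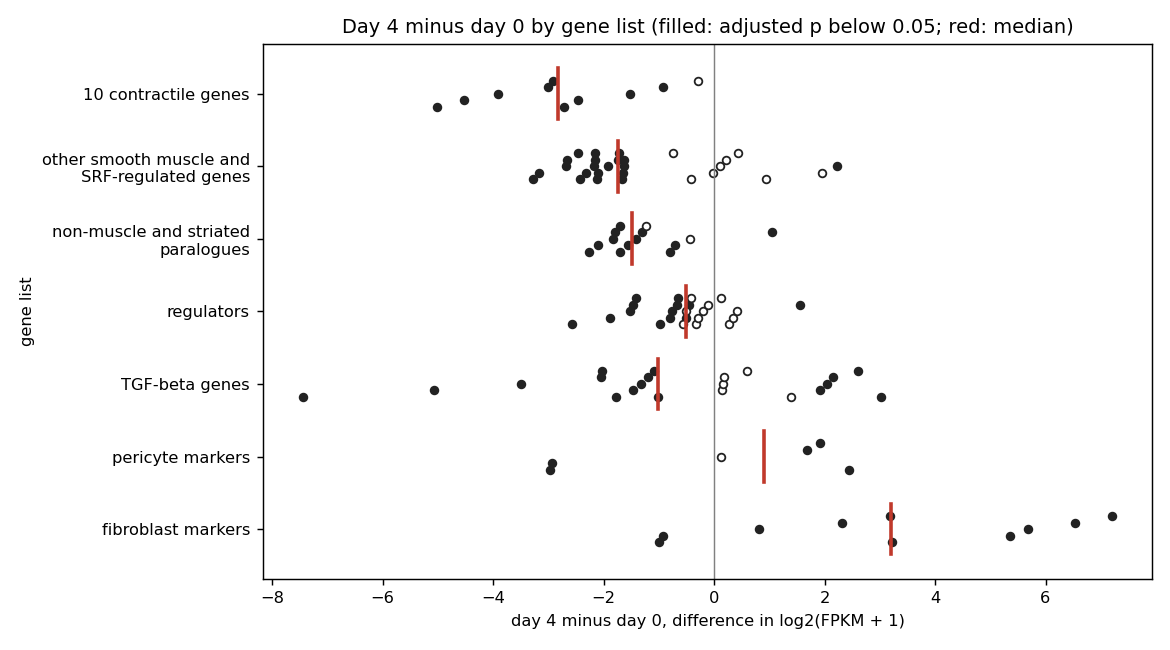
Day 4 minus day 0 differences in log2(FPKM + 1) are drawn for each gene of 7 lists, 1 point per gene, filled where the adjusted p was below 0.05, with a red line at the median of the list. The contractile genes lie lowest, with a median of -2.82, and fibroblast markers highest, with a median of 3.20.

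At days 6 and 7 the genes of these lists differed less evenly between KI and WT. Against WT 7 of 28 other smooth muscle and SRF-regulated genes were higher in KI, among them Fhl2, Itga8, Flna, Nexn, Lmod1 and Synpo2, and 2 were lower, with a median of 0.44, where 1.63% of all genes were called higher and 8.24% lower. Without the 3 WT libraries 5 were higher and 1 was lower. Lmod1 was at 3.42 and 2.46 FPKM in KI at days 6 and 7, against 0.965 and 0.759 in WT (1.07 ± 0.28). Of the 14 paralogues 3 were higher and 3 lower. Of the 24 regulators 0 were higher and 2 were lower by limma, a share near the 8.24% of all genes, and Srf was at 7.07 and 6.05 FPKM in KI against 6.53 and 6.61 in WT. Of the TGF-beta genes 3 were higher, Ltbp2, Ctgf and Thbs1, and none lower, and Ctgf was at 76.1 and 74.2 FPKM in KI against 17.9 and 20.0 in WT. Against KO 14 of the 28 were higher and 2 lower, and 16 of the 21 TGF-beta genes were higher and 1 lower, where 13.3% of all genes were called higher and 42.8% lower.

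Markers of other cell types differed between the same libraries, and their part in the contractile differences was not tested. Of all genes 12.3% were called higher and 10.0% lower at day 4 against day 0. At days 6 and 7, 1.63% were called higher and 8.24% lower in KI than in WT. Against KO these shares were 13.3% and 42.8%. The 10 fibroblast markers summed to 10598 to 12609 FPKM in KI at days 4 to 7, 2871 to 6871 in KO and 6079 to 10920 in WT, against 647 to 802 in MEF and day 0. At day 4, 8 of the 10 rose, Lum by 7.20 ± 0.51 and Dpt by 6.53 ± 0.52 among them, and 2 fell, Twist2 (-0.93 ± 0.20) and Thy1 (adjusted p = 0.042 by limma), with the same counts without the 3 WT libraries. At days 6 and 7, 0 of the 10 were called between KI and WT by limma, and 3 were higher in KI than in KO. Without the 3 WT libraries these counts were 1 and 7. Pericyte markers summed to 133 to 139.9 FPKM in KI at days 6 and 7, 45.4 to 45.9 in KO and 111 to 119 in WT, with 0 of 6 called between KI and WT by limma and 4 higher and 1 lower against KO. Epithelial markers summed to 0.511 and 0.620 FPKM in KI, 542 and 1291 in KO and 18.3 and 55.8 in WT at days 6 and 7. All 8 were lower in KI than in KO and 3 were lower than in WT. Macrophage markers summed to 2131 and 2059 FPKM in KI, 73.1 and 116 in KO and 3316 and 3989 in WT at these days. Endothelial markers summed to 3.62 and 3.55 FPKM in KI, 26.4 and 44.1 in KO and 9.24 and 8.51 in WT. Pluripotency markers summed to 0.996 and 1.43 FPKM in KI, 1047 and 1596 in KO and 46.4 and 137 in WT. Skeletal and cardiac markers summed to 9.37 and 10.1 FPKM in KI, 483 and 643 in KO and 7.36 and 77.9 in WT, the KO sums being mostly Mylpf at 469 and 619, with Myod1 and Myog listed at 0.

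Members resembled one another to different degrees over the 17 libraries, which share stage and genotype, so correlations describe these libraries only. Pearson's r of log2(FPKM + 1) ran over the 45 pairs from 0.50 for Actc1 with Tpm2 to 0.99 for Myl9 with Acta2, with a median of 0.84. With the mean of the 10 members, Tagln had r = 0.99 and Cnn1 and Acta2 r = 0.97, while Des had r = 0.80 and Actc1 r = 0.68. Outside the set the 10 genes whose profile was most like that mean were Nuak1 (r = 0.99), a kinase of the AMPK family, F2r (0.98), the thrombin receptor, Jph2 (0.98), Flna (0.97), filamin A, which crosslinks actin, Myl12a (0.97), Hoxa4 (0.97), Picalm (0.97), Axl (0.97), Nexn (0.97) and Tpm1 (0.97). Flna was at 319.6 and 245 FPKM in KI at days 6 and 7, 175 and 170.2 in KO and 153 and 181 in WT. Tpm1 was at 307 and 231 FPKM in KI, 190.4 and 195 in KO and 183 and 161 in WT.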

How the data were processed

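RNA was measured by stranded sequencing of polyadenylated RNA in 17 libraries, 1 for each genotype and stage. The deposited values are FPKM computed by the authors. Per the submitters' processing notes the tools included TopHat2 2.0.10, Bowtie 1.0.0, SAMtools 0.1.16, Cufflinks 2.2.1 and FastQC, with the builds GRCm38 and mm10. Not given in the sources used here are the annotation, the strand setting and any scaling of libraries to each other. Read depth is unknown, and no counting interval could be made. Summed FPKM per library lay between 510501 and 690770.

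The table had 38756 lines. The 41 lines that shared 19 repeated identifiers were summed, which left 38734 genes, 12764 of them at 0 throughout. Values were analysed as log2(FPKM + 1) where the mean FPKM was 1 or more, which left 14240 genes over 17 libraries and 13837 over the 15 before iPSC. A fold on this scale understates the change of low genes. Tests used limma 3.58.1 in R 4.3.3 (empirical Bayes with a variance trend, 2-sided, Benjamini-Hochberg over all genes tested, threshold 0.05). The procedure was also run on simulated data with independent noise for each library. Such data cannot show how well days 6 and 7 of a genotype stand as separate samples. Stage contrasts had stage and genotype as terms. Genotype contrasts used the 15 libraries, or a mean per genotype and period (MEF with day 0, day 4, day 6 with day 7, and iPSC). With no replicate library, p-values measure the spread between genotypes or neighbouring stages, not between cultures.

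The members, gene lists and tests were chosen with earlier results of these data known. Every member is described, and some genes of the other lists are not reported here by name. Other genes named are at most 6 per list, those called with the largest difference between day 4 and day 0, and the 10 with the highest correlation with the mean of the members. Lists of called genes between KI and WT, Srf, Actb, Mylpf, Myod1, Myog, Myocd and the checks of libraries were named after their values were seen. Positions are from GENCODE M21 and sequences from RefSeq, both GRCm38. Alternatives were another pseudocount (0.1), other filters (at least 5, or none), quantile and upper-quartile scaling, no genotype term and libraries left out. Results without the WT libraries that stood apart or without Actc1 were added after seeing the data.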

Additional observations from a re-analysis of the deposited data

Results flagged for a closer look

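The step from day 4 to days 6 and 7 differed between genotypes for 3 members by a test of the difference itself. Actg2 stepped up more in KI than in KO by 3.83 ± 0.65 (log2 scale, SE, adjusted p = 0.023 by limma) and more than in WT by 4.24 ± 0.65 (adjusted p = 0.0055). Cnn1 did so by 1.87 ± 0.30 against KO (adjusted p = 0.020 by limma) and by 1.53 ± 0.30 against WT (adjusted p = 0.014). Tpm2 did so by 1.81 ± 0.34 against WT (adjusted p = 0.013 by limma). Of all genes 0.435% were called higher for KI minus KO and 8.84% for KI minus WT. Each step rests on 1 day 4 library per genotype. Against KO the number of members called ran from 0 to 1 when the MEF, day 0, day 6 or day 7 libraries were left out, and it was 3 without the WT libraries that stood apart. Against WT it was 1 without the day 6 libraries, and without the WT day 4 library there is no value. Actg2 was at 5.17 FPKM in KI at day 4, 29.7 in KO and 28.3 in WT.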

How the results depend on the processing

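No paired analysis was possible because the labels give no replicate numbers. The stage contrasts do hold genotype as a term. With stage alone, 9, 10 and 10 members were called at day 4, at day 7 and in iPSC, and between day 0 and day 4 1484 genes were called higher and 1171 lower. For the members called at day 4 against day 0 and for KI against WT at days 6 and 7, 158 values were computed under an alternative, of which 128 kept direction and call, 30 kept direction without the call and 0 reversed. With the genotypes left out in turn, the count of members lower at day 4 than at day 0 (9) ran from 4 to 7 and that at day 7 against MEF (10) from 6 to 9, in each case lowest without WT, and that in iPSC against MEF (10) did not change by over 1.5 times. Without WT, 402 of 14102 genes were called lower at day 4 and 387 at day 7. With all libraries these were 1426 and 1507 of 14240. The member counts at day 7 and in iPSC include Actc1, which passed the filter through its MEF values. No alternative called a member between KI and WT over 5 stages. With the MEF or the day 0 libraries left out, the count higher in KI than in WT at days 6 and 7 (6) was 3 in each case. Of all genes 144 of 14299 and 141 of 14285 were called higher in these settings. The count higher than in KO (7) did not rise with any stage left out. Without the day 6 or the day 7 libraries 1 library per genotype is left in that period, so the counts between genotypes are not given. These settings have fewer libraries. The count higher in KI at days 6 and 7 than in KI at day 4 (0) was 1 with no filter, 1 with quantile normalization and 1 with upper-quartile scaling, and ran from 0 to 2 with stages left out, and the cause was not tested. Leaving out the 3 WT libraries with unlike X- and Y-linked RNA (those of iPSC, day 4 and MEF), an alternative chosen after seeing the data, the counts were 7 at day 4, 9 at day 7, 10 in iPSC, 6 for KI against WT and 7 for KI against KO. Of 14112 genes 1016 were called lower at day 4, 988 at day 7 and 2436 in iPSC. The shares of all genes for the counts between genotypes are not given, so those counts are descriptions only. The filter at 5 removed Myh11 and Actc1, which left 8 members. Read depth is unknown, so values under 1 FPKM carry an error that cannot be given.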
